A study of Mus musculus with 9 samples.

Results

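Transcripts of 8 genes of the calpain system were followed in the anterior capsule of the mouse lens, a basement membrane that carries the lens epithelium on its inner face. The genes are the calpain large subunits Capn1, Capn2, Capn3, Capn5, Capn7 and Capn15, the small subunit Capns1 and the inhibitor calpastatin, Cast. They were picked by symbol, and all 8 are among the 17527 genes of the deposited table. RNA sequencing gave 9 libraries in 3 groups of 3. The groups were aged mice that received EGCG (epigallocatechin gallate, a green tea catechin), aged control mice and young control mice. The labels put no number on age or dose and name no strain, sex, genotype, route or treatment time. They do not tell whether the libraries of a group are separate animals, pools or repeats, so the p-values below reflect the spread of these libraries alone, which may be technical.

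Calpains are cysteine proteases of the cytosol that calcium switches on and that cut their targets at a few sites rather than degrading them. The classical enzymes pair a catalytic large subunit, Capn1 or Capn2, with the shared small subunit Capns1, and calpastatin binds these enzymes and blocks them. In the rodent lens, calcium overload activates calpains, which trim crystallins and cut lens cytoskeleton proteins, a process long studied in cataract models.

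The catalytic cysteine places 6 of the members in a single enzyme family, and the coding bases around its codon show how far they have drifted apart. Each line below gives 45 coding bases, 5′ to 3′, with the cysteine codon in capitals, from the GENCODE annotation of GRCm38 as listed for the transcript read. Capns1 and Cast carry no such site.
Capn1: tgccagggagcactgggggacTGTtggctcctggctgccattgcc
Capn2: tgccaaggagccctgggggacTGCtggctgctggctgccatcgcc
Capn3: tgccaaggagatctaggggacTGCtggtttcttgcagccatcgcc
Capn5: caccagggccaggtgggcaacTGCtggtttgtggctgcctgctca
Capn7: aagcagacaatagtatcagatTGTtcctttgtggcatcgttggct
Capn15: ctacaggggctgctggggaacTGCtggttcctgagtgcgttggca

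The windows lie at chr19:6013679-6014011 for Capn1 (minus strand), chr1:182492842-182512222 for Capn2 (minus strand), chr2:120480737-120482138 for Capn3 (plus strand), chr7:98151845-98151889 for Capn5 (minus strand), chr14:31352488-31354133 for Capn7 (plus strand) and chr17:25963127-25963272 for Capn15 (minus strand). Spans longer than 45 bases cross introns, which are left out. Relative to Capn2, the same base stood at 88.9% of positions in Capn1 and 84.4% in Capn3, at 62.2% in both Capn5 and Capn15, and at 40% in Capn7. The codon was TGC in 4 of the 6 members and TGT in Capn1 and Capn7.

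Promoters are given next for Capn2, Capns1 and Cast, which moved together in these libraries mainly through the gap between aged and young libraries. Many genes share that movement: of 10998 genes compared, 1751 had a Pearson r of 0.95 or more with Capn2 and 1504 with Cast. A link between these sequences and the movement was not tested. Each sequence runs from 250 bases before to 50 after the RefSeq start in GRCm38.p6, on the coding strand. Capitals mark the CCAAT box, CCAAT or its reverse complement ATTGG.
Capn2: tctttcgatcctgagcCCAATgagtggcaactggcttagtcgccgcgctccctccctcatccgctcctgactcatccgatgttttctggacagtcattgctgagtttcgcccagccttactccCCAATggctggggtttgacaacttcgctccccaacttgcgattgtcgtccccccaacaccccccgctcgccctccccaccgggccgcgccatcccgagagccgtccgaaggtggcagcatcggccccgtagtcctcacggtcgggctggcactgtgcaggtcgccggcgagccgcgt
Capns1: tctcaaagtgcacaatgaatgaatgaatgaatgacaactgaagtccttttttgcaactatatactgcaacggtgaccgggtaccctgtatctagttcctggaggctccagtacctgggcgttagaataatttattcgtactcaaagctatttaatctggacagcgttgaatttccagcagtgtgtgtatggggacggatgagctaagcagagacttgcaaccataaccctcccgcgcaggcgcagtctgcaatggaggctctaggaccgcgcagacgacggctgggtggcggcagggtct
Cast: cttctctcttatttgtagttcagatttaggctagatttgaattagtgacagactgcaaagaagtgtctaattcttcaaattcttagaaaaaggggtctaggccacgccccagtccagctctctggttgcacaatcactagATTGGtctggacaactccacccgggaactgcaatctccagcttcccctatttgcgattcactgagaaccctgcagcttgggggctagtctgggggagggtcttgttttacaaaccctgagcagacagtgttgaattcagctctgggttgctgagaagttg

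These promoters lie at chr1:182517561-182517860 for Capn2, chr7:30195104-30195403 for Capns1 and chr13:74808711-74809010 for Cast, all on the minus strand. For Cast, which has 4 RefSeq starts, the most upstream is shown. Letters were searched on both strands for the CCAAT box, the GC box GGGCGG, the TATA box TATAAA and TGCTGAC, a core site of the MAF family of lens transcription factors. Capn2 held 2 CCAAT boxes and Cast 1, Capns1 held none of the 4 motifs, and none of the 3 windows held a GC box, a TATA box or the MAF core site. Of 32851 RefSeq promoters of this length, 37.4% held a CCAAT box, 35.7% a GC box, 13.6% a TATA box and 4.67% the MAF core site. CpG pairs numbered 27 in Capn2, 14 in Capns1 and 3 in Cast, against a median of 7 over all promoters. At the other Cast starts the windows held 11, 10 and 2 CpG pairs, and the first and second of these held 2 and 1 GC boxes. A match here is a match of letters and not a shown binding site.

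Library totals ranged from 13184169 to 16528179 counts, and 3 counts in a library corresponded to 0.182 to 0.228 CPM, a count set to an equal total in every library. Levels between groups are given as TMM-scaled CPM, levels between genes as FPKM, fragments per length and library total. Lens fibre markers summed to 94289 to 98379 CPM in aged EGCG libraries, 109498 to 118428 CPM in aged control and 93063 to 95001 CPM in young control, with all 18 detected in every group. The 14 lens epithelium markers summed to 7619 to 7862, 8373 to 8666 and 6291 to 6335 CPM in aged EGCG, aged control and young control libraries. Retinal transcripts were also present: the 32 markers, none at 0, summed to 11993 to 12229 CPM in aged EGCG, 1950 to 2037 CPM in aged control and 26411 to 26566 CPM in young control libraries. In bulk tissue, fewer cells of a type and less RNA per cell cannot be told apart, which touches every difference between groups below.

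Capns1 and Capn2 were the leading members in all 3 groups. Capns1 averaged 134.7 ± 5.99 FPKM in aged EGCG, 127 ± 3.06 FPKM in aged control and 67.0 ± 1.0 FPKM in young control libraries (SD, n = 3 each). Capn2 averaged 62.9 ± 3.16, 62.4 ± 1.80 and 33.2 ± 1.05 FPKM in the same groups. Capns1 thus stood at the 97.4th percentile of tested genes in both aged groups and at the 95.5th percentile in young control libraries.

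Cast and Capn7 followed, at 12.6 ± 0.365 and 12.5 ± 0.610 FPKM in aged EGCG and at 12.1 ± 1.60 and 11.8 ± 1.59 FPKM in aged control libraries, and their library ranges overlapped in both aged groups. In young control libraries the order of this pair was the other way, with Cast at 5.97 ± 0.303 FPKM and Capn7 at 13.7 ± 0.543 FPKM, and their ranges did not overlap. Capn1, the large subunit of the enzyme active at low calcium, was far below Capn2, at 3.89 ± 0.371 FPKM in aged EGCG, 3.71 ± 0.511 FPKM in aged control and 2.93 ± 0.413 FPKM in young control libraries. Capn15 averaged 2.53 ± 0.362, 2.14 ± 0.315 and 5.74 ± 0.355 FPKM in aged EGCG, aged control and young control libraries, and overlapped Capn5 in both aged groups and Cast in the young group. Capn5 averaged 2.26 ± 0.0549, 1.95 ± 0.158 and 1.79 ± 0.233 FPKM. Capn3 was at the bottom, at 0.050, 0.025 and 0.20 FPKM on average. The 8 members together summed to 231 ± 8.83 FPKM in aged EGCG, 221 ± 2.498 FPKM in aged control and 130.5 ± 0.750 FPKM in young control libraries.

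**Figure D1:**
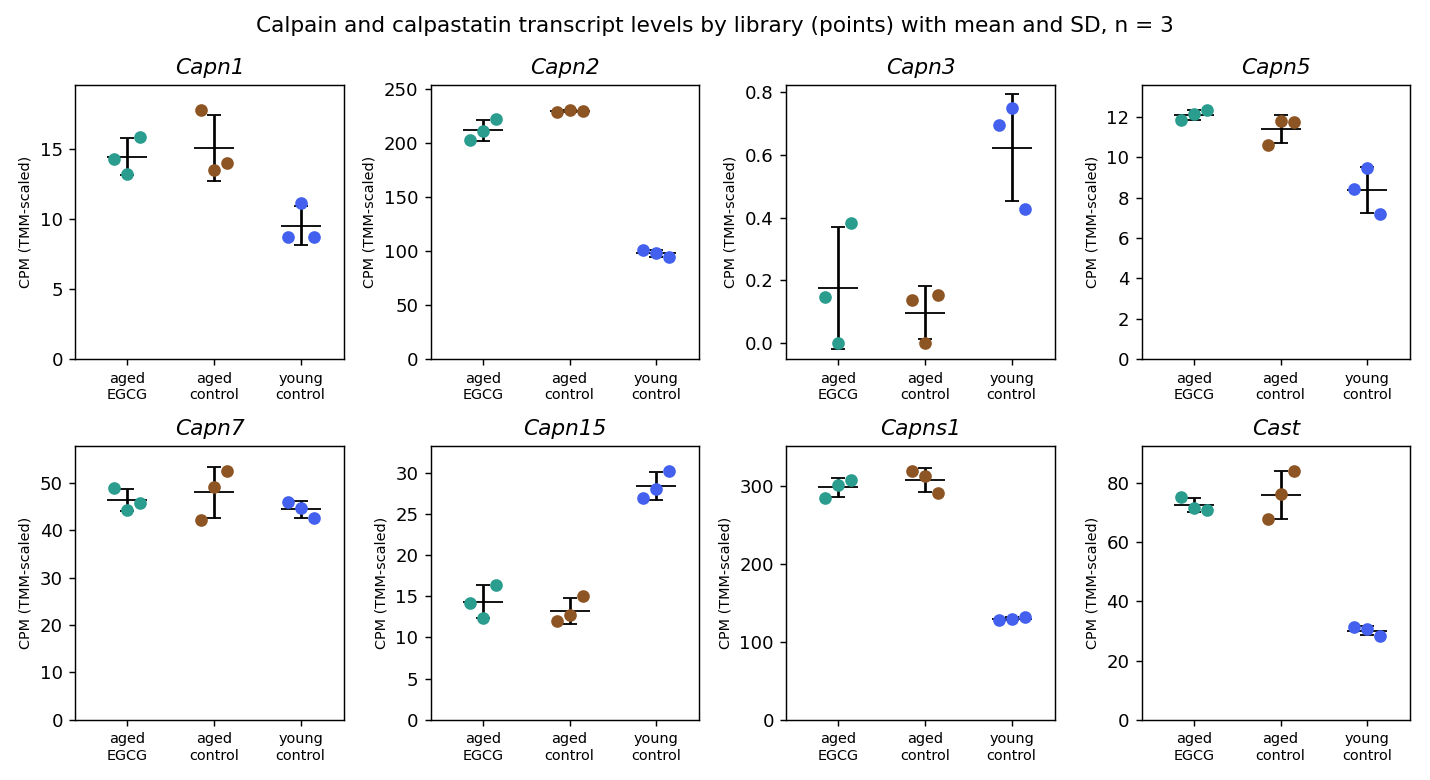
Each panel plots 1 member, with the TMM-scaled CPM of each library as a point (y axis, linear) for the aged EGCG, aged control and young control groups (x axis); the long bar is the mean and the whiskers the SD of 3 libraries. For Capn2, Capns1 and Cast all 6 aged libraries sit above all 3 young control libraries, and for Capn15 they all sit below.

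Calls with age were frequent among the members, as they were among all genes. Of the 7 members that passed the filter on low counts, 5 rose in aged control against young control capsule and 1, Capn15, fell, with edgeR's quasi-likelihood test and Benjamini-Hochberg adjustment over all 13711 tested genes, while Capn7 did not pass. Change was widespread in this comparison: 69.2% of all tested genes were called, 35.4% as higher and 33.8% as lower, so 6 called members of 7 is close to what the table as a whole gives. With limma on log2(FPKM + 1), 3 members were called higher and 1 lower, where 2947 of the 13711 genes were higher and 6424 lower. By size in edgeR, Capn2, Capns1 and Cast stood at the 96.4th, 96.6th and 97.4th percentile of all log2 fold changes. These 3 members were higher and Capn15 lower by at least 2-fold, where 7.42% of all genes were called higher and 19.1% lower by that much. No member was called in aged EGCG against aged control libraries, where 24.1% of all genes were, 7.41% of all genes higher and 0.831% lower by at least 2-fold. That count of 0 from edgeR was also 0 from DESeq2 and from limma on log2(FPKM + 1), and 1 member, Capn2, had an unadjusted p under 0.05 in edgeR.

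Capn2, on chromosome 1 (chr1:182467260-182517608, GRCm38, minus strand), encodes the large subunit of the enzyme that needs high calcium. It had 203, 211 and 222 CPM in aged EGCG libraries, 228, 231 and 229.9 CPM in aged control libraries and 101, 97.8 and 94.7 CPM in young control libraries. The aged groups stood well above the young group. On this TMM-scaled CPM the highest aged EGCG library stayed below the lowest aged control library, and groups did not overlap for 33.5% of all genes in that comparison. On FPKM the aged EGCG libraries (59.9 to 66.2) and the aged control libraries (60.6 to 64.2) overlapped. Capn2 was 2.35-fold higher in aged control than in young control libraries (log2 fold change 1.23, SE 0.054, edgeR adjusted p = 5.42e-25). Between aged EGCG and aged control libraries the log2 fold change was −0.12, with a 95% interval of −0.22 to −0.012, and the adjusted p was 0.101. With a trend on gene length removed from each library, that difference was −0.13 and passed the test (edgeR adjusted p = 0.0398), whereas with library size alone it was 0.011 and with scaling to lens fibre genes 0.10, both not called.

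Capn1, on chromosome 19 (chr19:5988545-6015897, minus strand), had 14.3, 13.2 and 15.9 CPM in aged EGCG libraries, 17.8, 13.5 and 14.0 CPM in aged control libraries and 8.70, 11.2 and 8.74 CPM in young control libraries. On this TMM-scaled CPM both aged groups lay above the young one without overlap and overlapped each other. Groups also did not overlap for 72.1% of all genes in aged control and 68.3% in aged EGCG, each against young control. On FPKM the aged control libraries (3.31 to 4.29) overlapped the young control ones (2.69 to 3.41). The gene was 1.58-fold higher in aged control than in young control libraries (log2 fold change 0.66, SE 0.15, edgeR adjusted p = 0.000177). This call was lost with limma on log2(FPKM + 1), where the log2 difference was 0.26 (adjusted p = 0.0556), and with library size alone the log2 fold change was 0.34 (edgeR adjusted p = 0.0459). Aged EGCG against aged control gave −0.065 (95% interval −0.37 to 0.24, edgeR adjusted p = 0.811).

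Capns1, on chromosome 7 (chr7:30186936-30198811, minus strand), encodes the small subunit that both classical enzymes share and need for stability. Its values were 285, 302 and 309 CPM in aged EGCG libraries, 320.1, 313 and 291 CPM in aged control libraries and 128, 129.9 and 131.5 CPM in young control libraries. The 3 young libraries were nearly equal, and the aged groups overlapped each other at more than 2-fold the young level. In aged control against young control libraries Capns1 was 2.37-fold higher (log2 fold change 1.25, SE 0.052, edgeR adjusted p = 7.42e-26), and in aged EGCG against aged control libraries the log2 fold change was −0.046 (95% interval −0.15 to 0.054, edgeR adjusted p = 0.568). Scaled to lens fibre genes, this last value was 0.17, called as higher (edgeR adjusted p = 0.00555).

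Cast, on chromosome 13 (chr13:74692368-74808810, minus strand), had 75.1, 71.4 and 70.7 CPM in aged EGCG libraries, 67.9, 76.1 and 84.2 CPM in aged control libraries and 31.2, 30.8 and 28.3 CPM in young control libraries. All aged libraries were above all young ones, and the aged groups overlapped. The inhibitor was 2.52-fold higher in aged control than in young control libraries (log2 fold change 1.34, SE 0.080, edgeR adjusted p = 1.04e-19). The aged EGCG libraries fell within the spread of the aged control libraries, with a log2 fold change of −0.069 (95% interval −0.22 to 0.083, edgeR adjusted p = 0.569). Cast overlaps Erap1 on the opposite strand over 834 bases, and whether the counting used strand is not known from the labels.

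**Figure D2:**
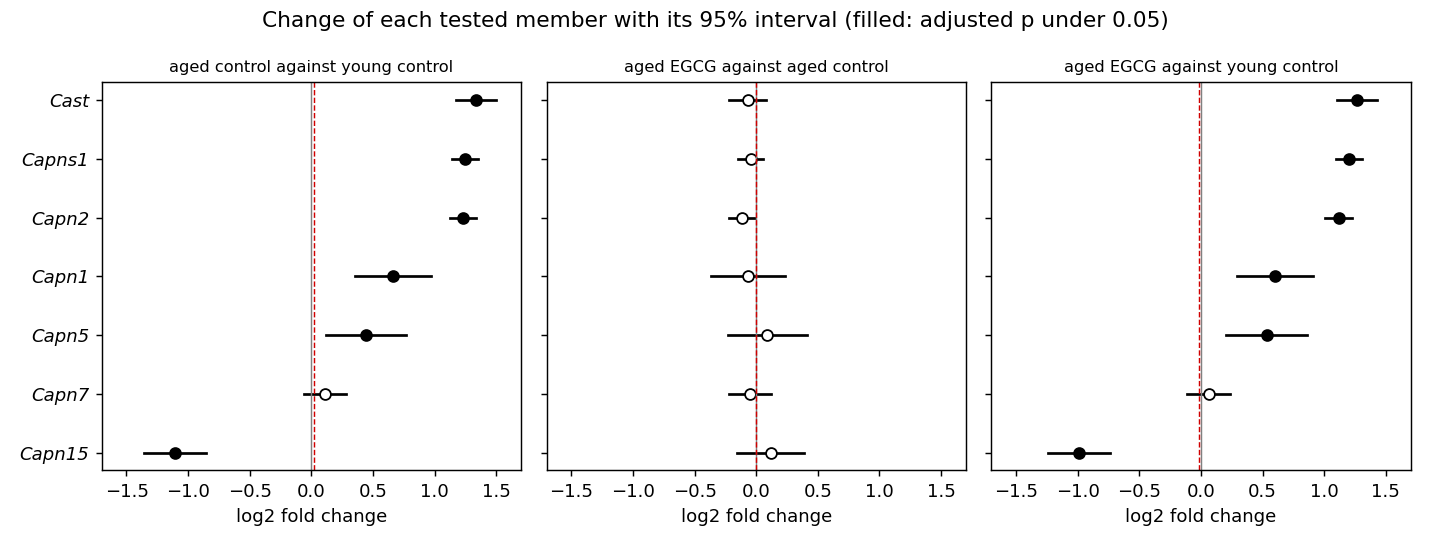
The log2 fold change (x axis) of each of the 7 tested members (rows) is drawn with its 95% interval in the 3 comparisons, filled where the edgeR adjusted p is under 0.05; the dashed line is the median of all 13711 genes. Capn2, Capns1 and Cast sit between 1.116 and 1.336 against young control libraries in both aged groups, while all members lie between −0.116 and 0.118 in aged EGCG against aged control libraries.

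Inhibitor and enzyme transcripts were set against each other within each library. The FPKM of Cast over the summed FPKM of Capn1 and Capn2 was 0.204, 0.187 and 0.175 in aged EGCG libraries, 0.163, 0.183 and 0.203 in aged control libraries and 0.168, 0.167 and 0.161 in young control libraries. The means were 0.189 ± 0.0145, 0.183 ± 0.0201 and 0.165 ± 0.00369 (SD, n = 3 each), the aged groups overlapped each other, and the lowest aged control library lay inside the young range, while all aged EGCG libraries lay above all young control ones. These ratios describe transcripts and were not tested. Capns1 over the same denominator averaged 2.02 ± 0.0387 in aged EGCG, 1.92 ± 0.0877 in aged control and 1.86 ± 0.0821 in young control libraries. Capn2 over Capn1 averaged 16.2 ± 1.18 in aged EGCG, 17.04 ± 2.54 in aged control and 11.5 ± 1.61 in young control libraries. Capn2 over Capn15 averaged 25.1 ± 3.06 in aged EGCG, 29.4 ± 3.32 in aged control and 5.81 ± 0.521 in young control libraries.

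**Figure D3:**
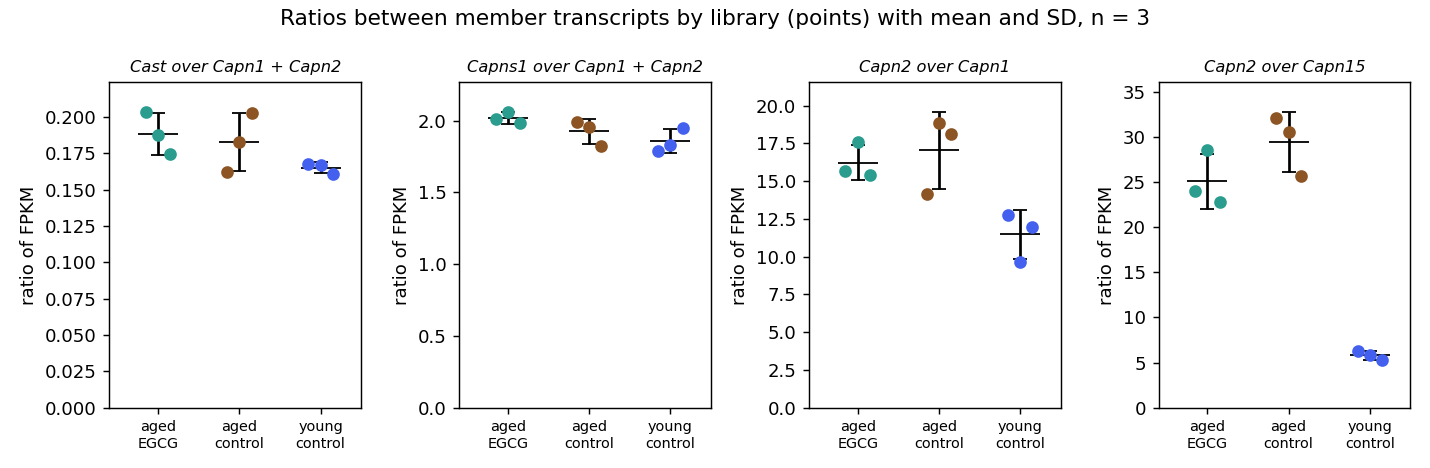
Ratios of deposited FPKM values (y axes, linear from 0) are plotted for each library as points, with mean and SD, in aged EGCG, aged control and young control groups (x axes). Cast over Capn1 + Capn2 in aged control libraries overlaps both other groups, while the aged EGCG libraries lie above the young control ones, and Capn2 over Capn15 runs from 22.7 to 32.0 in the 6 aged libraries and from 5.26 to 6.30 in the young ones.

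Capn3, which did not pass the filter and is described below, was lower in every aged library than in every young control library. That separation rests on few counts, up to 5 in an aged EGCG library against 7 or more in the young control ones. Groups did not overlap for 72.1% of tested genes in aged control against young control and for 68.3% in aged EGCG against young control. Among the 7 tested members, only Capn15 was called lower with age. This large calpain (chr17:25958364-25985796, minus strand) is the mammalian counterpart of the fly small optic lobes protein, and its loss in mice disturbs eye development. It had 14.2, 12.4 and 16.4 CPM in aged EGCG libraries, 12.0, 12.7 and 15.02 CPM in aged control libraries and 26.9, 28.0 and 30.2 CPM in young control libraries. All 6 aged libraries were below all young ones, and the aged groups overlapped. It fell by 1.105 on the log2 scale in aged control against young control libraries (SE 0.13, 2.15-fold lower, edgeR adjusted p = 1.36e-10). In aged EGCG against aged control libraries the log2 fold change was 0.12 (95% interval −0.15 to 0.39, edgeR adjusted p = 0.589), and 0.34 when scaled to lens fibre genes, where it was just called (adjusted p = 0.0498).

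Retinal markers moved in the same direction as Capn15 with age, 31 of 32 being called lower in aged control against young control libraries and 1, Prox1, which lens fibre cells also express, higher. Between aged EGCG and aged control libraries, 30 of the 32 were called higher and their mean sum was 12141 CPM against 1985 CPM, while Capn15 averaged 14.3 ± 2.01 CPM in aged EGCG and 13.2 ± 1.60 CPM in aged control libraries. The part of retinal RNA in the age difference of Capn15 was not tested.

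Capn5 and Capn7 lack the calmodulin-like end of the classical large subunits. Capn5 (chr7:98121559-98178274, minus strand), in which mutations cause an inherited inflammatory eye disease in people, had 11.9, 12.1 and 12.4 CPM in aged EGCG libraries, 10.6, 11.8 and 11.8 CPM in aged control libraries and 8.45, 9.47 and 7.21 CPM in young control libraries. On this TMM-scaled CPM the groups stood apart in this order, by small margins. Groups also did not overlap for 72.1% of all genes in aged control against young control and for 33.5% in aged EGCG against aged control. On FPKM the aged control libraries (1.77 to 2.07) overlapped the young control ones (1.55 to 2.01). Capn5 was 1.36-fold higher in aged control than in young control libraries (log2 fold change 0.44, SE 0.16, edgeR adjusted p = 0.0146). The call was lost with library size alone (0.12, adjusted p = 0.517), with scaling to lens fibre genes (0.28, adjusted p = 0.125), with limma on log2(FPKM + 1) (0.082, adjusted p = 0.449) and without young control library 3 (0.34, adjusted p = 0.0927). Against aged control libraries the aged EGCG value was 0.090 (95% interval −0.23 to 0.41, edgeR adjusted p = 0.748). The gene Omp lies within Capn5 on the same strand, so reads there could be counted to either.

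Capn7 (chr14:31336638-31371986, plus strand), which binds proteins of the ESCRT membrane-sorting machinery, gave no call. It had 49.0, 44.4 and 45.8 CPM in aged EGCG libraries, 42.2, 49.3 and 52.6 CPM in aged control libraries and 46.1, 44.7 and 42.6 CPM in young control libraries, and all 3 groups overlapped. The log2 fold change was 0.11 in aged control against young control libraries (95% interval −0.061 to 0.28, edgeR adjusted p = 0.247) and −0.049 in aged EGCG against aged control libraries (95% interval −0.22 to 0.12, edgeR adjusted p = 0.745). The age value depended on the scaling, being −0.21 and called as lower with library size alone (edgeR adjusted p = 0.0341). Under TMM scaling it was 0.20 and called as higher without aged control library 1 (edgeR adjusted p = 0.0411). Sh3bp5 overlaps it on the opposite strand over 12107 bases.

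Capn3 (chr2:120456019-120504913, plus strand) is the calpain of skeletal muscle, and rodent lens makes its own splice forms from this gene, which counts per gene cannot separate. It had 2, 0 and 5 counts in aged EGCG libraries, 2, 0 and 2 counts in aged control libraries and 11, 12 and 7 counts in young control libraries, and did not pass the filter. Pooled over the libraries of a group this was 0.167 CPM in aged EGCG (95% exact Poisson interval 0.0671 to 0.344), 0.0851 CPM in aged control (0.0232 to 0.218) and 0.700 CPM in young control (0.472 to 0.999), intervals that cover counting error only. Every young control library was above every aged library, at the closest by 7 counts against 5. Without the filter on low counts, the log2 fold change was −2.59 in aged control against young control libraries, called lower (edgeR adjusted p = 0.0460), and −1.79 in aged EGCG against young control libraries, not called (edgeR adjusted p = 0.160). Unfiltered limma on log2(FPKM + 1) called it lower in both, with adjusted p = 0.00261 and 0.00714. Capn3 passed the filter in some fits that left out a library, in each through the young control libraries, where its counts were highest. Calls in these fits depend on that selection and add no separate support. There the age value was −2.03 without aged control library 2 (edgeR adjusted p = 0.0871), and −2.95, −3.04 and −2.81 without aged control library 1, aged control library 3 and young control library 3, each called. In aged EGCG against young control libraries it was −2.98 and called without aged EGCG library 3 (edgeR adjusted p = 0.0291) and not called in the other such fits. Skeletal muscle markers summed to 137 to 143 CPM in aged EGCG, 127 to 145 CPM in aged control and 85.0 to 97.6 CPM in young control libraries, mostly from Casq1 and Pygm, with Myh2 at 0 in both aged groups. Capn3 overlaps Ganc on the same strand over 5682 bases.

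The remaining comparison, aged EGCG against young control libraries, shares the young control group with the age comparison and the aged EGCG group with the EGCG comparison. The same 5 members were called higher and Capn15 lower, 6 of 7 tested, where 63.6% of all genes were called. Capn2, Capns1 and Cast passed 2-fold, where 4.89% of all genes were called higher and 14.5% lower by that much. The fold sizes were 2.17 for Capn2, 2.30 for Capns1, 2.41 for Cast, 1.51 for Capn1 and 1.45 for Capn5, and Capn15 was 1.98-fold lower. The largest edgeR adjusted p among these was 0.00400, for Capn5. On TMM-scaled CPM, groups did not overlap for 6 of 7 members here, where 68.3% of genes did not. The same held for 6 of 7 in aged control against young control (72.1% of genes). In aged EGCG against aged control it held for Capn2 and Capn5 (33.5% of genes). On FPKM, which carries no TMM scaling, Capn1 and Capn5 overlapped between aged control and young control libraries, and Capn2 between the aged groups.

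The small differences between the aged groups depended on how the libraries were scaled. With library size alone in place of TMM the median log2 fold change of all genes moved to −0.30 in aged control against young control and to 0.12 in aged EGCG against aged control, from 0.023 and −0.004 with TMM. Scaled to lens fibre genes these medians were −0.14 and 0.22. Under each of the 4 scalings shown, Capn1, Capn2, Capns1 and Cast were called higher and Capn15 lower in aged control against young control libraries, whereas the signs of Capn1, Capn2, Capn7, Capns1 and Cast in aged EGCG against aged control libraries flipped with both of these scalings.

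**Figure D4:**
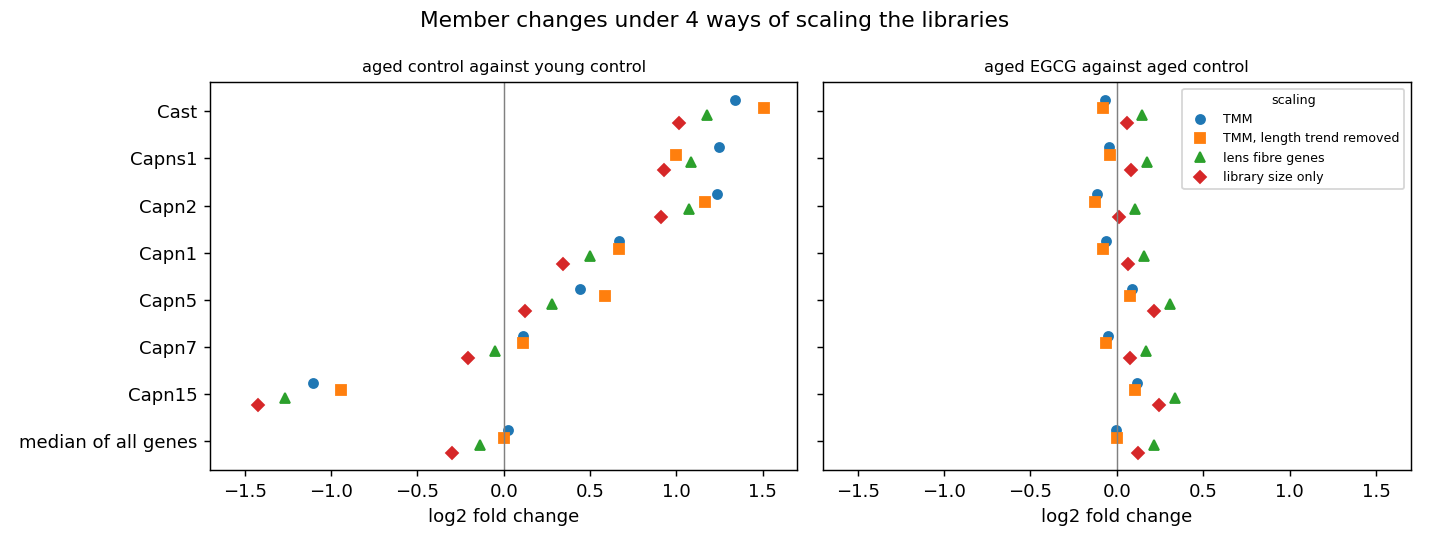
The log2 fold change (x axis) of each tested member and the median of all genes (rows) is drawn under 4 scalings (markers) for aged control against young control and for aged EGCG against aged control. With age the values for Cast stay between 1.02 and 1.51 and those for Capn15 between −1.42 and −0.94, whereas Capn7 changes sign, and in the EGCG comparison Capn1, Capn2, Capn7, Capns1 and Cast lie on both sides of 0.

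Of 9 other calpain family genes, 8 are in the table and 2 passed the filter. Capn10, a widely expressed calpain without the calmodulin-like end, stood at a higher level per length than Capn1 and Capn5, at 7.36 ± 0.834 FPKM in aged EGCG, 5.89 ± 0.885 FPKM in aged control and 5.76 ± 0.840 FPKM in young control libraries. It averaged 21.5 ± 2.36 CPM in aged EGCG, 18.8 ± 3.19 CPM in aged control and 14.7 ± 2.13 CPM in young control libraries, and its call as higher in aged control against young control (log2 fold change 0.36, edgeR adjusted p = 0.0177) was lost with DESeq2 (adjusted p = 0.0601), with library size alone, with lens fibre scaling and with the length trend removed. Capn6, which lacks the catalytic cysteine, averaged 0.532 CPM in aged EGCG, 0.742 CPM in aged control and 1.62 CPM in young control libraries, with an age log2 fold change of −1.123 (edgeR adjusted p = 0.0508). Under the same 4 alternatives Capn6 was called lower with age, with adjusted p = 0.0405 by DESeq2, 0.0128 with library size alone, 0.0263 with lens fibre scaling and 0.0499 with the length trend removed. Capns2, a second small subunit gene, had 0 counts in all 6 aged libraries and 5, 9 and 7 counts in the young ones. The others stayed at or below 25 counts per group: Capn8 had 0, 13 and 13, Capn9 21, 25 and 8, Capn11 11, 2 and 3, Capn12 6, 0 and 0, and Capn13 0, 0 and 2 counts in aged EGCG, aged control and young control groups.

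Close structural relatives of Capns1, which share its penta-EF-hand calcium-binding fold, moved unevenly with age. Of 4, Sri and Pef1 rose, Gca fell and Pdcd6 was not called in aged control against young control libraries. Sri, sorcin, a regulator of calcium release channels, averaged 193 ± 5.93 CPM in aged EGCG, 217 ± 7.54 CPM in aged control and 89.2 ± 2.14 CPM in young control libraries, 2.43-fold higher with age (edgeR adjusted p = 1.99e-25), beside 2.37-fold for Capns1. Pef1 was 1.76-fold higher and Gca, grancalcin of leukocytes, 3.42-fold lower with age. In aged EGCG against aged control libraries Sri was 1.125-fold lower (edgeR adjusted p = 0.0129), a call lost with library size alone and with lens fibre scaling, where the sign turned to 0.050.

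Known calpain targets of lens and cytoskeleton mostly rose with age. Of 22 tested, 19 were called higher and 2 lower in aged control against young control libraries, with a median log2 fold change of 0.48 against 0.023 over all genes, of which 35.4% were called higher and 33.8% lower. By library size alone 12 were higher and 4 lower, at a median of 0.164. Vim, the intermediate filament vimentin, averaged 3918 ± 72.5 CPM in aged EGCG, 4491 ± 66.0 CPM in aged control and 1731 ± 19.1 CPM in young control libraries, 2.595-fold higher with age. Gsn, the actin-severing protein gelsolin, was 3.06-fold higher, the gap junction gene Gja3 2.23-fold and the αA-crystallin gene Cryaa 1.81-fold. With EGCG, against aged control libraries, 14 of the 22 were called lower and none higher, at a median of −0.20, against 10.3% of all genes called lower and 13.8% called higher. Lens cell markers moved by a like amount, 12 of 18 lens fibre markers being called lower and none higher (median −0.21) and 8 of 14 lens epithelium markers lower and 2 higher (median −0.21), and their part in the change of the targets was not tested. The 4 with the smallest p were crystallins: Cryab was 1.34-fold, Cryba1 1.31-fold, Crybb2 1.27-fold and Cryaa 1.23-fold lower. This split depended on the scaling, with 5 higher and 9 lower by library size alone and 6 higher and 7 lower on the lens fibre scale, whose own list holds 8 of the 22 genes.

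Genes that bring calcium in, store it or remove it mostly fell with age. Of 30 tested, 17 were called lower and 7 higher in aged control against young control libraries, at a median log2 fold change of −0.78, where 33.8% of all genes were lower and 35.4% higher. With the length trend removed 14 were lower and 11 higher, and by library size alone 20 were lower and 3 higher. The plasma membrane calcium pump Atp2b1 averaged 29.6 ± 4.37 CPM in aged EGCG, 13.2 ± 2.505 CPM in aged control and 116 ± 4.60 CPM in young control libraries, 8.83-fold lower with age (edgeR adjusted p = 2.42e-30). The pump Atp2b2 was 8.51-fold, the sodium-calcium exchanger Slc8a1 4.41-fold and the release channel Ryr2 4.36-fold lower with age. In aged EGCG against aged control libraries 6 were called higher and 1 lower, where 13.8% of all genes were higher and 10.3% lower. Among them were Atp2b1 at 2.25-fold, Atp2b2 at 1.995-fold and Atp2b3 at 6.81-fold higher. Atp2b3 had only 2 to 7 counts per aged control library and 30 to 39 per aged EGCG library, so its fold size is imprecise. By library size alone 13 of the 30 were higher and 1 lower, and on the lens fibre scale 14 and 1. These directions are those of the retinal markers in both comparisons. Red blood cell markers also moved this way, 5 of 6 being called lower with age and 4 of 6 higher in aged EGCG against aged control libraries. Their sums were 65.6 to 75.4 CPM in aged EGCG, 50.1 to 61.5 CPM in aged control and 252 to 255 CPM in young control libraries. Bpgm, at 48.9, 48.7 and 42.6 CPM on average in the same order, made up most of the sums in the aged groups. Endothelial and mural markers were lower with age in 8 of 11 and higher in 1, but lower in 3 and higher in 1 with EGCG, with sums of 139 to 144.5, 158.5 to 171 and 222 to 234 CPM in aged EGCG, aged control and young control libraries. The part of RNA from these cells in the changes of the calcium genes was not tested.

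Calcium-binding proteins mostly rose with age. Of 13 tested, 11 were called higher and 1 lower in aged control against young control libraries, at a median log2 fold change of 1.002, where 35.4% of all genes were higher and 33.8% lower. This became 8 higher and 3 lower by library size alone and 8 and 2 on the lens fibre scale. Anxa2, an annexin of membranes, was 3.33-fold higher, its partner S100a10 2.41-fold, S100a11 3.29-fold and the calmodulin gene Calm3 2.10-fold. Aged EGCG libraries had 7 of them called lower and 1 higher against aged control libraries (10.3% and 13.8% of all genes), with Anxa1 1.28-fold, Anxa2 1.28-fold, S100a6 1.27-fold and S100a11 1.22-fold lower. On the lens fibre scale 5 were higher and 2 lower, and the calls of Anxa2 and S100a11 were lost.

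**Figure D5:**
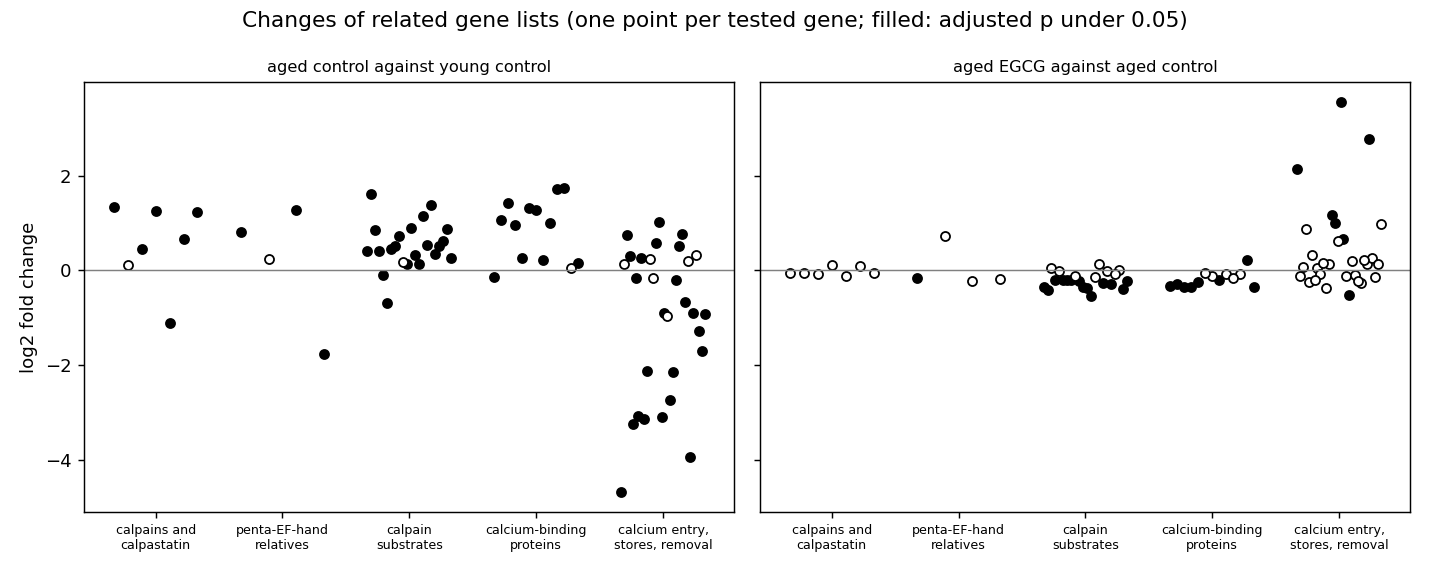
Each point is a tested gene, placed by list (x axis) and by its log2 fold change (y axis), filled where the edgeR adjusted p is under 0.05, in aged control against young control and in aged EGCG against aged control. Calpain targets and calcium-binding proteins lie mostly above 0 with age and genes of calcium entry, stores and removal mostly below, while the 7 calpain system members lie close to 0 in the EGCG comparison under TMM scaling.

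Across the 9 libraries, the members fell into a tight core and a few that departed from it. On log2 CPM, Pearson's r was 0.995 between Capn2 and Capns1, 0.988 between Capn2 and Cast, and 0.979 between Capns1 and Cast, but −0.961 between Capn2 and Capn15. These values describe mainly the gap between aged and young libraries, which the pairs named here share. The genes closest to Capn2 were Epdr1, Spg21 and Gas6 (r = 0.999, 0.999 and 0.998), but 1751 of 10998 genes of at least 5 CPM had an r of 0.95 or more with it. Those closest to Cast were Dock5, Nckap1 and Pbx3 (r = 0.999, 0.997 and 0.997), with 1504 genes at that level. Capn1 was nearest to Wdr34, Nmral1 and Sh3glb2 (r = 0.985, 0.977 and 0.976), with 33 genes at that level. Capn3 was nearest to Hus1, Kansl1 and Eogt (r = 0.967, 0.964 and 0.952), on counts too low to place it firmly.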

How the data were processed

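Libraries were prepared from total RNA of the anterior lens capsule by a SMARTER mRNA-Seq kit, per the labels' protocols. The genome build was GRCm38 (mm10), per the submitters' processing notes. The sources used here name no aligner, counter or strand setting. The deposited tables hold raw read counts by gene symbol and FPKM values made by the authors. In 100% of entries with a count, the deposited FPKM equalled the count over a gene length and the library total within 0.01%.

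Counts were tested with edgeR 4.0.16 in R 4.3.3 (quasi-likelihood test, two-sided, TMM scaling, filterByExpr at its default minimum count of 10, 13711 of 17527 genes kept, 9 libraries in 1 fit, biological coefficient of variation 7.89%). Benjamini-Hochberg adjustment ran over all tested genes, with calls at an adjusted p under 0.05. Standard errors come from the log2 fold change and its F statistic. DESeq2 1.42.0, limma 3.58.1 on log2(FPKM + 1), other scalings, a length correction, a replicate block and fits without each library in turn were run as alternatives. On counts simulated for the age comparison over 13514 genes, edgeR recovered 88.8% of genes changed 2-fold, and 8.29% of its calls were genes not changed (3.7% for DESeq2). That simulation changed only 98 genes by 1 and 102 by 2 on the log2 scale, with 1 spread for all genes. In the data 69.2% of tested genes were called with age, so these rates may not carry over.

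Pairs of libraries of a group differed by a mean chi-square per gene of 2.58 to 7.57, above the 1 of sampling noise, so none was merged. Named are all members, the other calpains in the table, up to 4 called genes with the smallest p per list in the first 2 comparisons, and the 3 genes most correlated with Capn1, Capn2, Capn3 and Cast. Gca, Pef1, Pdcd6, Omp, Ganc, Erap1, Sh3bp5 and markers named outside this rule were chosen after their values or positions were seen. The members and lists were chosen with earlier results of these data known. The RefSeq table held promoters for 7 of the 8 members. Library totals of 13184169 to 16528179 counts leave rare transcripts such as Capn3 imprecise.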

Additional observations from a re-analysis of the deposited data

How the results depend on the processing

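Calls with age were stable for Capn2, Capns1, Cast and Capn15 under every alternative run. The small values between the aged groups were not, and the cause was not tested. Changes of sign, on the log2 scale, were as follows for aged EGCG against aged control, in the order Capn1, Capn2, Capn7, Capns1 and Cast: library size alone gave 0.065, 0.011, 0.077, 0.082 and 0.056, lens fibre scaling 0.157, 0.103, 0.168, 0.174 and 0.147, limma on log2(FPKM + 1) 0.056, 0.010, 0.076, 0.081 and 0.056 with or without the filter, and limma on log2(FPKM + 0.1) 0.070, 0.010, 0.082, 0.082 and 0.061. For Capn7 in aged control against young control the value was −0.209 with library size alone, −0.050 with lens fibre scaling, −0.199 with limma on log2(FPKM + 1) with or without the filter and −0.213 with limma on log2(FPKM + 0.1). For Capn7 in aged EGCG against young control it was −0.132 with library size alone and with limma on log2(FPKM + 0.1), and −0.123 with limma on log2(FPKM + 1) with or without the filter. Leaving out each library in turn, values for aged EGCG against aged control ran from −0.143 to 0.072 for Capn1, from −0.134 to 0.020 for Capn7 and from −0.145 to 0.007 for Cast. Of 126 values so obtained over all members and comparisons, 121 kept direction and call, 3 changed sign, 1 lost and 1 gained its call.

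The number of members called in aged EGCG against aged control was 0, but 2 on the lens fibre scale (Capns1 and Capn15, both higher), 1 with the length trend removed and 1 with that removal in a replicate block (Capn2, lower). In aged control against young control the count was 4 with limma on log2(FPKM + 1). It was 8 of 8 without aged control replicate 1, where Capn3 passed the filter through the young control libraries alone. The Cast ratio with CPM in place of FPKM was 0.321 in aged EGCG, 0.311 in aged control and 0.280 in young control libraries, on a scale that does not take out gene length, and with Capn2 alone below the line it was 0.200 in aged EGCG, 0.194 in aged control and 0.180 in young control libraries.

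Groups share replicate numbers, but same-numbered libraries did not deviate together (r from −0.0201 to 0.0298). With 3 libraries per group, these values cannot exclude a pairing. With the replicate number as a block, the counts of called members stayed at 6, 0 and 6, and all 21 member values kept their direction and call.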
